A study of Mus musculus with 8 samples.

Results

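The HoxC cluster is the row of 9 homeobox genes from Hoxc13 to Hoxc4 on mouse chromosome 15, and its chromatin accessibility was examined in the embryonic tailbud. Members were all counted regions that overlap the interval from 102740000 to 102880000 bp of chromosome 15 (genome build mm9), 12 of the 26620 regions counted in the series, together with the peaks called there in each library. Tailbuds of embryonic day 9.5 on the outbred CD-1 background were profiled by ATAC-seq, an assay that marks open DNA by transposase insertion. The genotypes were WT/WT (4 libraries) and Sd/Sd (4 libraries), the latter carrying the Danforth's short tail allele on both chromosomes. The Sd allele was carried by Sd/+ stock, and some libraries may pool the tailbuds of 2 mice, with no label saying which. Nor do the labels say what a replicate number stands for, so the tests rest on the variation among these 8 libraries, part of which may be technical. A tailbud is a mixture of cell types, so a change in the share of cells and a change in accessibility per cell cannot be told apart.

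Hox genes encode homeodomain transcription factors that give cells their position along the head-to-tail axis. Within a cluster the order of the genes follows the order in which they are switched on and the body level they pattern, a property called collinearity. In HoxC, Hoxc4, Hoxc5 and Hoxc6 lie at the anterior end and act at neck and upper trunk levels, Hoxc8 and Hoxc9 act in the thorax, Hoxc10 and Hoxc11 act at lumbar and sacral levels, and Hoxc12 and Hoxc13 lie at the posterior end, Hoxc13 being known also for its role in hair and nails. Danforth's short tail truncates the caudal axis, which is laid down from the tailbud. Comparing the genotypes across this cluster asks whether accessibility at these position genes differs in the mutant tailbud.

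The gene order in the RefSeq table (GRCm38.p6) is Hoxc13, Hoxc12, Hotair, Hoxc11, Hoxc10, Mir196a-2, Hoxc9, Hoxc8, Hoxc6, Hoxc5, Mir615 and Hoxc4. Hotair is a long non-coding RNA gene, and Mir196a-2 and Mir615 are microRNA genes within the cluster. A mature product of each microRNA gene is shown, with bases 2 to 8 (the seed) in capitals, because its full sequence can be given. Each of these genes also has another mature product, which is not shown. The mature miR-196a-5p sequence is identical in Mir196a-1 of the HoxB cluster, and miR-196a is known to act on Hox messenger RNAs.
miR-196a-5p (Mir196a-2): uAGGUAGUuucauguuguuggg
miR-615-3p (Mir615): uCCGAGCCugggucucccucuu

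Of the 9 Hox genes, 1 has an entry in the RefSeq promoter table, Hoxc4, and the other 8 are Hoxc5, Hoxc6, Hoxc8, Hoxc9, Hoxc10, Hoxc11, Hoxc12 and Hoxc13. The 250 bases before the Hoxc4 start (GRCm38.p6, plus strand, chr15:103034145-103034394) are shown since Hoxc4 marks the anterior end of the cluster. Capitals mark matches to 5 motifs searched on both strands, a list drawn up after part of this sequence had been seen.
Hoxc4 promoter: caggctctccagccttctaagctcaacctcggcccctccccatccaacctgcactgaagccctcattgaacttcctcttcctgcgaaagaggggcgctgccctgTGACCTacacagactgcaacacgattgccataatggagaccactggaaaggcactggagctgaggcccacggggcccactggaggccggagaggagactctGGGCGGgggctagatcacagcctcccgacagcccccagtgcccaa
The window held 1 match to AGGTCA, the core of many nuclear receptor sites, on the minus strand, and 1 match to GGGCGG, the GC box. Those motifs occur in 14.0% and 32.7% of the 32851 promoters of the same length. TAATTA, a homeodomain core, was not in this window and occurs in 4.84% of promoters. TTTATG, a core of CDX and posterior HOX sites, was not in it either and occurs in 10.8%. The CCAAT box was also without a match and occurs in 33.8%. GC content was 62% against a median of 52.4%. The files use another build, so whether this window lies in a counted region was not determined.

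Regions are numbered 1 to 12 from the Hoxc13 end to the Hoxc4 end. No mm9 gene annotation was used here, so regions were assigned to no gene beyond 2 approximate mm9 positions given with the interval, Hoxc13 near 102.752 Mb, which lies in region 1, and Hoxc4 near 102.867 Mb, which lies between regions 11 and 12. The other 7 genes lie between these positions in the order above. Counts were divided by the library total over all regions and are given per 1000000 counts (CPM), or as CPM per kb of region width where regions are compared. The 8 libraries held 2873918 to 4180434 counts, and the totals of the genotypes overlapped (two-sided exact permutation test on 4 against 4 totals, p = 0.257). HoxC regions held 31 to 368 counts per library. As a check of tissue, counted regions were sought within 10 kb of marker genes, whose mm9 positions were recalled and checked against no annotation. There were 5 near Cdx2, a caudal homeobox gene, with 146 CPM in sum, 1 near T (Brachyury), with 19.0 CPM, and 1 near Alb, a liver gene, with 17.7 CPM. None was found near the recalled positions of the tailbud genes Fgf8 and Wnt3a, nor of Ins2 and Myog, which mark other tissues. This list therefore does not by itself establish the tissue.

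The 12 regions covered 11833 bp, 8.45% of the 140 kb interval, at a density of 8.57 regions per 100 kb. In the 50 kb on each side there were 3 regions, 0 beyond the Hoxc13 end and 3 beyond the Hoxc4 end. Gaps between HoxC regions ran from 1636 bp (regions 10 and 11) to 19827 bp (regions 5 and 6). The median HoxC region was 717 bp wide and reached 36.2 CPM per kb, against 874 bp and 32.9 CPM per kb over all regions. Of the 12, 5 were wider than the all-region median, and regions 1, 8 and 9 stood at width percentiles 88.5, 99.3 and 87.8. The coefficient of variation over the 8 libraries was above the all-region median of 15.3% in 9 of 12 regions, with a HoxC median of 17.1%.

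**Figure D1:**
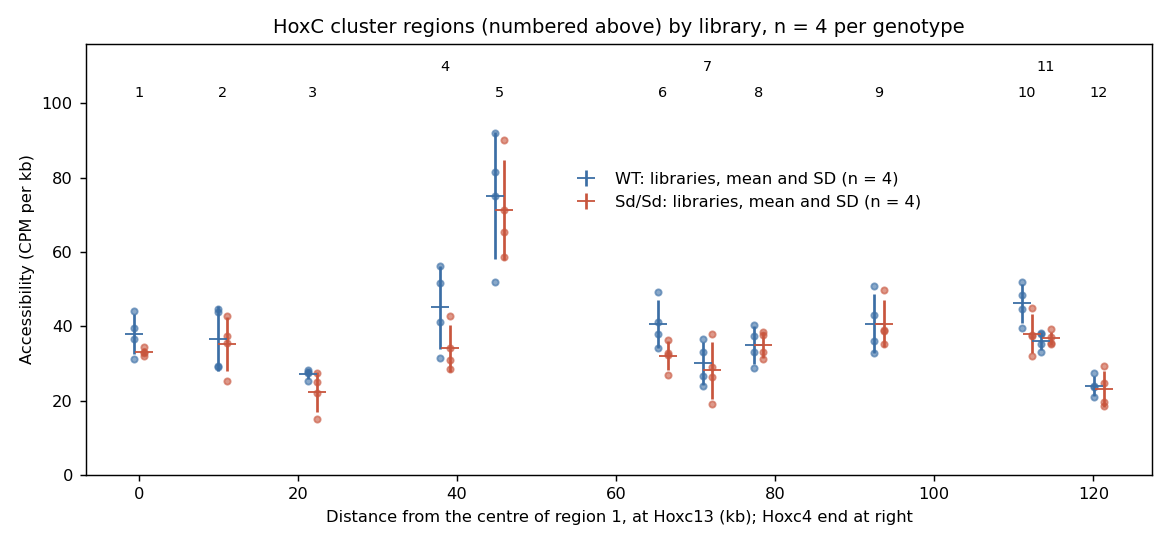
Accessibility of the 12 HoxC regions in CPM per kb of region width (vertical axis) against distance in kb from the centre of region 1 (horizontal axis). Points are libraries, short bars are means and vertical lines are SD, WT in blue and Sd/Sd in red (n = 4 each). Region 5 had the highest mean (73.2 CPM per kb), and the points of both genotypes overlap at every region.

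The most accessible stretch per length was region 5. It spans 102796826 to 102797479 and had 73.2 CPM per kb ± 14.4 (SD, n = 8), which is above 93.8% of all counted regions. It ranked first or second among the 12 in every library. The following levels were 42.1 ± 6.55 CPM per kb in region 10 and 40.7 ± 6.67 in region 9. Region 4 had 39.6 ± 10.3. Region 5 exceeded region 10 in 7 of 8 libraries. In the remaining one, WT replicate 4, region 5 had 51.94 CPM per kb and region 10 had 51.99.

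After region 5 the order of the next regions was not resolved. From region 10 to region 8 in that order, 8 regions had means between 35.0 and 42.1 CPM per kb. Between neighbours in the order of level the ranges over libraries overlapped in 11 of 11 pairs. The lowest levels were 29.1 ± 6.44 CPM per kb in region 7, 24.7 ± 4.40 in region 3 and 23.5 ± 3.71 in region 12, beyond Hoxc4 (SD, n = 8). Regions 3 and 12 took ranks 10 to 12 in every library.

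The authors called peaks in each library separately, 72 in all within the interval, and peak fold enrichments below are the peak caller's own values. A peak lay on region 1, at Hoxc13, and on regions 5 and 8 in 8 of 8 libraries. Region 9 had one in 3 WT and 4 Sd/Sd libraries. Region 7 had one in 1 WT and 1 Sd/Sd library. On region 5 the WT libraries had fold enrichments between 4.2 and 4.98 and the Sd/Sd libraries between 4.91 and 5.5. On region 1 they lay between 3.30 and 4.81 and between 3.18 and 4.12. These ranges overlap between the genotypes, on region 5 only because WT replicate 2 (4.98) was above Sd/Sd replicate 4 (4.91).

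**Figure D2:**
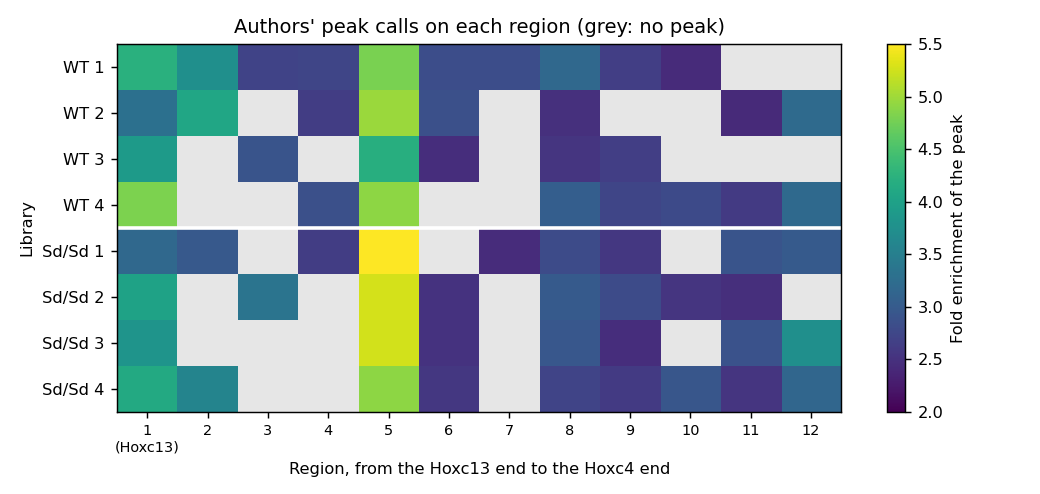
Peak calls of the authors on the 12 HoxC regions (horizontal axis) in each library (vertical axis). Colour is the peak's fold enrichment, and grey means that no peak was called. Columns 1, 5 and 8 are filled in all 8 libraries, and column 5 has the highest values.

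WT libraries had a peak on 8 ± 1.63 of the 12 regions, and Sd/Sd libraries on 8.25 ± 0.957 (SD, n = 4 per genotype). The lowest number, 6, was in WT replicate 3, which also had the smallest total count (2873918). The highest, 10, was in WT replicate 1, with a total of 3451166. Over all 26620 regions the share with a peak ran from 61.4% in WT replicate 3 to 83.3% in Sd/Sd replicate 4. Peak presence thus also differs between libraries outside the cluster, and the part of depth in the HoxC numbers was not tested.

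Region 4 had a peak in 3 WT libraries and 1 Sd/Sd library, and region 11, the last before Hoxc4, in 2 and 4. Another 5 peaks, each in 1 library, lay on no counted region. From the Hoxc13 end they were at 102780380 to 102781031 (WT replicate 4, fold enrichment 2.79), 102785073 to 102785583 (Sd/Sd replicate 4, 2.71) and 102811911 to 102812660 (Sd/Sd replicate 4, 2.58). The last ones were at 102840406 to 102840654 (WT replicate 2, 2.77) and 102858140 to 102858339 (Sd/Sd replicate 1, 3.12). Each was thus called open in 1 of 8 libraries.

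Between the genotypes no HoxC region changed past the threshold. With edgeR's quasi-likelihood test, adjusted over all regions, 0 of 12 had an adjusted p under 0.05, where 5 of all 26620 (0.0188%) did, and the smallest adjusted p in the cluster was 0.802. DESeq2, limma with voom and a quality weight per library (voom below), and limma with cyclic loess also called 0 of 12. Their shares of all regions were 0.0113%, 0.0338% and 0.0451%. At an unadjusted p under 0.05 edgeR gave 2 regions, both lower in Sd/Sd, DESeq2 gave 1, voom gave 1 and cyclic loess gave 2. The background at that level in edgeR is 6.06% of all regions in either direction and 3.09% lower in Sd/Sd. In DESeq2, voom and cyclic loess it is 4.42%, 5.95% and 6% in either direction. In 0 of 12 regions did the libraries of the genotypes fail to overlap, against 3.2% of all regions.

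**Figure D3:**
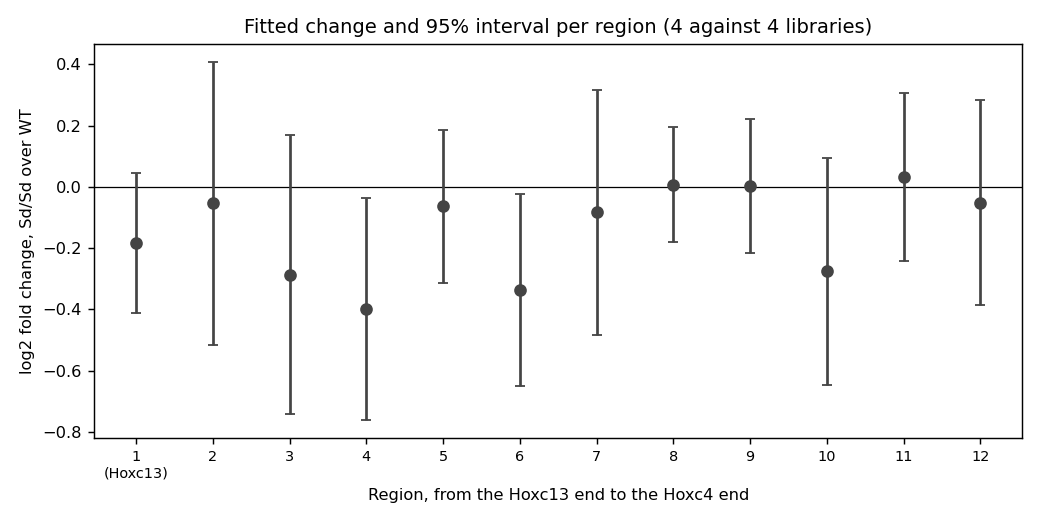
Fitted log2 fold change of Sd/Sd over WT (vertical axis) for the 12 HoxC regions in order of position (horizontal axis). Bars are 95% intervals from 4 against 4 libraries. Regions 4 and 6 have intervals below 0, from -0.76 to -0.03 and from -0.65 to -0.02, and the other 10 intervals include 0.

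At the posterior end, region 1 (102751034 to 102752597) holds the position given for Hoxc13. It had 57.4, 68.9, 61.9 and 48.9 CPM in WT replicates 1 to 4 and 53.9, 51.5, 51.9 and 50.2 CPM in Sd/Sd replicates 1 to 4. The Sd/Sd libraries lay close together inside the wider WT range. The log2 fold change was -0.18 (SE 0.12, 95% interval -0.41 to 0.05).

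Region 2 (102762142 to 102762512) was the narrowest at 371 bp. It had 16.2, 16.6, 10.8 and 10.8 CPM in WT replicates 1 to 4 and 13.9, 15.9, 9.35 and 13.2 CPM in Sd/Sd replicates 1 to 4. The ranges of the genotypes overlapped, with Sd/Sd replicate 3 below every WT library, and the log2 fold change was -0.05 (SE 0.24). Region 3 (102773404 to 102773959) had 15.4, 15.2, 15.7 and 14.1 CPM in WT and 12.2, 15.2, 13.9 and 8.37 CPM in Sd/Sd. In Sd/Sd 3 libraries were below every WT library and replicate 2 was not, and the log2 fold change of -0.29 (SE 0.23) had an interval from -0.74 to 0.17.

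Region 4 (102790026 to 102790576) was the region of smallest unadjusted p in edgeR. It had 31.0, 28.5, 22.6 and 17.3 CPM in WT replicates 1 to 4 and 23.6, 18.8, 15.7 and 17.0 CPM in Sd/Sd replicates 1 to 4. WT replicates 1 and 2 were above every Sd/Sd library, while WT replicates 3 and 4 lay within the Sd/Sd range. Means were 24.8 ± 6.15 and 18.8 ± 3.47 CPM (SD, n = 4 each). The fold was 0.759 and the log2 fold change -0.40 (SE 0.18, unadjusted p = 0.0317 and adjusted p = 0.802 in edgeR). With 1 library left out, the log2 fold change ran from -0.54 to -0.27 and the unadjusted p from 0.00595 to 0.190 (edgeR).

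Region 5, the most accessible per length, had 53.3, 60.3, 49.1 and 34.0 CPM in WT replicates 1 to 4 and 58.9, 46.6, 38.3 and 42.8 CPM in Sd/Sd replicates 1 to 4. The genotypes overlapped over most of their range. Its log2 fold change was -0.06 (SE 0.13, 95% interval -0.32 to 0.19). The fold enrichments of its peaks did not go the same way. They were mostly higher in Sd/Sd (4.91 to 5.5) than in WT (4.2 to 4.98), and this difference was not tested.

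In the middle of the cluster, region 6 (102817307 to 102818086) followed the widest gap between regions. It had 32.2, 38.4, 29.6 and 26.6 CPM in WT replicates 1 to 4 and 25.6, 25.2, 28.4 and 21.1 CPM in Sd/Sd replicates 1 to 4. In Sd/Sd 3 libraries were below every WT library, and replicate 3 was above WT replicate 4. Means were 31.7 ± 5.01 and 25.05 ± 3.01 CPM (SD, n = 4 each). The fold was 0.792 and the log2 fold change -0.34 (SE 0.16, unadjusted p = 0.0353 and adjusted p = 0.802 in edgeR). With 1 library left out, the log2 fold change ran from -0.41 to -0.23 and the unadjusted p from 0.0169 to 0.180 (edgeR).

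Region 7 (102822979 to 102823593) had 20.3, 22.5, 16.4 and 14.6 CPM in WT replicates 1 to 4 and 23.3, 17.8, 11.8 and 16.3 CPM in Sd/Sd replicates 1 to 4. Both the highest and the lowest value came from Sd/Sd libraries. The log2 fold change was -0.08 (SE 0.20).

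Further toward the anterior end, region 8 (102828422 to 102831059) was the widest, at 2638 bp, wider than 99.3% of all regions. WT replicate 1 and Sd/Sd replicate 2 each had 2 separate peaks on it, and the other libraries had 1. It had 106.6, 98.7, 87.3 and 76.1 CPM in WT replicates 1 to 4 and 99.2, 101.3, 87.2 and 82.3 CPM in Sd/Sd replicates 1 to 4. The Sd/Sd values all lay inside the WT range, and the log2 fold change of 0.01 (SE 0.10) had the narrowest interval of the 12, from -0.18 to 0.20. Region 9 (102844068 to 102845606) had 78.2, 50.7, 66.1 and 55.3 CPM in WT and 76.7, 59.5, 60.0 and 54.1 CPM in Sd/Sd, again inside the WT range, with a log2 fold change of 0.0026 (SE 0.11).

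Regions 10 (102863199 to 102863688) and 11 (102865325 to 102866346) were the last before the position given for Hoxc4. Region 10 had 19.4, 21.9, 23.7 and 25.5 CPM in WT replicates 1 to 4 and 18.3, 22.0, 15.7 and 18.4 CPM in Sd/Sd replicates 1 to 4. In Sd/Sd 3 libraries were below every WT library and replicate 2 was not, and the log2 fold change was -0.28 (SE 0.19, 95% interval -0.65 to 0.10). Region 11 had 35.9, 39.1, 33.8 and 38.7 CPM in WT and 40.0, 36.2, 38.0 and 36.1 CPM in Sd/Sd. Its 8 values spanned a 1.18-fold range. Its coefficient of variation of 5.53% was the lowest of the 12 and stood at percentile 1.61 of all regions. The highest, 25.9% in region 4, stood at percentile 89.8. In region 11 the counting error was 8.14% to 10.2% per value, which is above its coefficient of variation. The low variation was therefore not read as a trait of region 11. The log2 fold change was 0.03 (SE 0.14).

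Region 12 (102872019 to 102873071), beyond Hoxc4, had 22.0, 24.8, 25.1 and 29.0 CPM in WT replicates 1 to 4 and 30.8, 20.7, 25.9 and 19.6 CPM in Sd/Sd replicates 1 to 4. The Sd/Sd libraries spanned more than the WT range on both sides, and the log2 fold change was -0.05 (SE 0.17).

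By position, all 7 of regions 1 to 7 had a log2 fold change below 0 (median -0.18). In regions 8 to 12, 2 of 5 were below 0 and the median was 0.0026. This division was chosen after the values were seen and has no test. Leaving out 1 library turned the sign of regions 2, 5, 7, 8, 9, 11 and 12. Over the 12 regions the median was -0.07, against 0.00057 over all regions tested. The regions outside the interval had medians of -0.11 (3 regions within 50 kb) and -0.06 (34 regions within 500 kb), also below 0. No 95% interval among the 12 reached beyond a 1.69-fold change up or down, and that of region 8 reached 1.15-fold.

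Summed over the 12 regions, the cluster took 488.0, 485.4, 441.9 and 390.9 CPM in WT replicates 1 to 4 and 476.3, 430.7, 396.0 and 379.4 CPM in Sd/Sd replicates 1 to 4. Means were 452 ± 45.6 and 421 ± 42.9 CPM (SD, n = 4 each), a ratio of 0.931. The means differed by less than the SD of either genotype. In both genotypes the sum fell from each replicate number to the next. Each Sd/Sd library was below the WT library of the same replicate number, and the sum was not tested within numbers. WT replicate 4 was below Sd/Sd replicates 1, 2 and 3, and Sd/Sd replicate 1 was above WT replicates 3 and 4. In single regions, WT replicate 2 was above the 8-library mean in 11 of 12 and Sd/Sd replicate 4 in 0 of 12. Sd/Sd replicate 4 had the highest total count of the series (4180434), and the part of depth in its low HoxC level was not tested. Without it the ratio was 0.962.

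The other Hox clusters, described as related loci over windows recalled in mm9 and checked against no annotation, were HoxA with 8 counted regions, HoxB with 3 and HoxD with 9. None of their regions had an adjusted p under 0.05 in edgeR (smallest adjusted p 0.861, 0.802 and 0.802), against 0.0188% of all regions. At an unadjusted p under 0.05 there were 0, 1 and 2 regions, all lower in Sd/Sd. Of all regions, 6.06% were at that level in either direction and 3.09% were lower in Sd/Sd. The libraries of the genotypes failed to overlap in 0 of 8 regions in HoxA, 0 of 3 in HoxB and 1 of 9 in HoxD. Over all regions that share was 3.2%. The share of regions below 0 in Sd/Sd was 9 of 12 in HoxC, 6 of 8 in HoxA, 2 of 3 in HoxB and 9 of 9 in HoxD, against 49.9% over all regions. Median log2 fold changes were -0.07, -0.08, -0.27 and -0.19. The clusters come from the same 8 libraries, so they are not independent of each other.

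**Figure D4:**
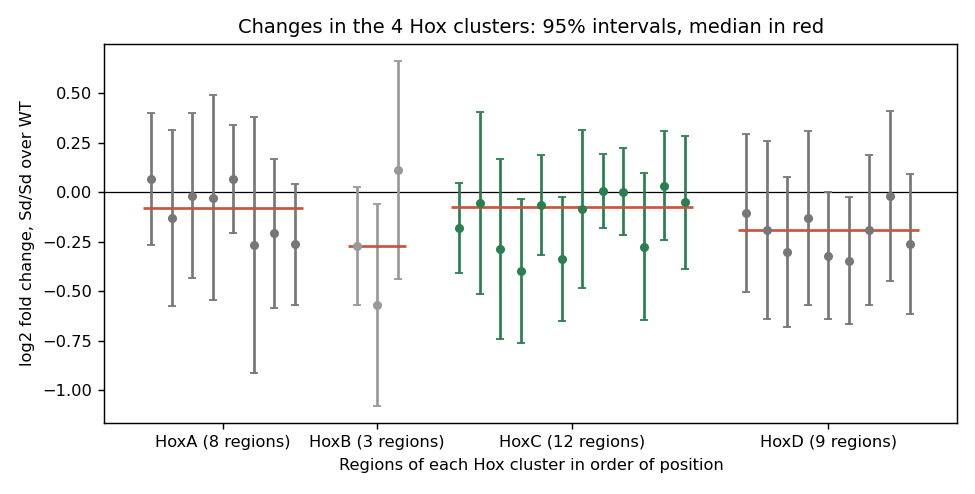
Fitted log2 fold change of Sd/Sd over WT (vertical axis) for every counted region of the 4 Hox clusters in order of position (horizontal axis), with 95% intervals and the cluster median as a red line. Medians lie below 0 in all 4 clusters, from -0.27 in HoxB to -0.07 in HoxC, and most intervals include 0.

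HoxC was the cluster with the highest levels. Its median region reached 36.2 CPM per kb, against 31.2 in HoxA, 19.5 in HoxB and 25.8 in HoxD, as a description without a test. Region 5 (73.2 CPM per kb) exceeded the highest region of HoxA (39.6), HoxB (35.7) and HoxD (31.3). Over its window of 190 kb HoxB held 1.58 regions per 100 kb against 8.57 in HoxC, 6.67 in HoxA and 8.18 in HoxD.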

How the data were processed

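ATAC-seq was done on 4 WT/WT and 4 Sd/Sd tailbud libraries. The submitters' processing notes name mm9 as the build. They list, without roles, BWA (0.7.15-r1140), MACS2 (2.1.1.20160309), bedtools (2.26.0), bcl2fastq (2.17.1.14), SAMtools, Picard and CASAVA. Whole-number counts over 26620 shared regions were deposited by the authors, and what 1 count is (read, fragment or cut site) is not stated. They also deposited broad peaks per library with a score, a fold enrichment (ratio) and −log10 p and q values, each the peak caller's own.

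Counts were tested with edgeR 4.0.16 (quasi-likelihood, robust, TMM, two-sided, R 4.3.3) on all regions and 8 libraries, with genotype as the only term and Benjamini-Hochberg adjustment over all regions (threshold 0.05). The filter on low counts removed 0 regions. SEs were derived from the fitted change and its F statistic, and intervals are 95% intervals. Printed CPM use the plain library total, and log2 fold changes use TMM, so their signs can differ near 0. The test was checked on simulated data. DESeq2 1.42.0 and limma 3.58.1 were alternatives, and voom was run with a quality weight per library. Peaks were assigned to regions at an overlap of at least 1 bp. The region nearest to each gene was to be named, but no mm9 annotation was used and positions were not carried over from another build, so only the Hoxc13 and Hoxc4 positions given with the interval were used. Windows of the other Hox clusters and marker positions were typed from memory after the files had been seen.

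Every region of the interval was described, with fuller statistics for those of smallest unadjusted p. The members and lists were chosen with earlier results of these data known. Counts at an unadjusted p under 0.05 were added after the values were seen. The depth of 31 to 368 counts per HoxC region gives a counting error of 5.21% to 18.0% per value, and this covers counting error only.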

Additional observations from a re-analysis of the deposited data

Results flagged for a closer look

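Of 30 groups of 4 libraries examined (the 12 HoxC regions, their sum, the number with a peak and the total count, in each genotype), 0 held 1 library far from the other 3, where chance gives about 1 group in 20.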

How the results depend on the processing

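The number of HoxC regions past an adjusted p of 0.05 was 0 in all 19 alternatives run (other scalings, tools, filters, the replicate block, a window widened by 50 kb and leaving out each library), with a lowest adjusted p of 0.487. At an unadjusted p under 0.05 the HoxC number was lowest, at 0, when WT replicate 1, WT replicate 2 or Sd/Sd replicate 4 was dropped. Its highest value, 3, came from dropping WT replicate 4. In these leave-out fits, calls over all regions were counted at the adjusted p of 0.05 only. Whether the HoxC numbers at an unadjusted p move with a change over all regions was therefore not tested. Over all regions the calls numbered 5 in edgeR, 3 with upper-quartile scaling, 3 with DESeq2, 9 with voom, 12 with cyclic loess, 15 without robust variance and 2 to 19 with 1 library left out. With the replicate number as a block they numbered 23, and the calls in HoxC stayed at 0. Over all regions, deviations of libraries with the same number correlated at -0.00107 to 0.0918. The 2 of 8 libraries that correlated best with their own number were WT replicate 4 and Sd/Sd replicate 4, with each other (0.0918). The numbers were therefore not taken as pairs. These correlations do not describe the cluster alone, where the summed CPM fell with the replicate number in both genotypes. Whether the summed HoxC CPM follows the numbers was not tested.

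Signs turned where changes were near 0, in 20 of 214 recomputed region changes. Region 9 was -0.0039 with library totals alone and region 8 was -0.0025 with cyclic loess. With 1 library left out the log2 fold change ran from -0.15 to 0.074 in region 2, -0.21 to 0.047 in region 5, -0.26 to 0.060 in region 7, -0.073 to 0.087 in region 8, -0.11 to 0.13 in region 9, -0.0068 to 0.062 in region 11 and -0.19 to 0.039 in region 12. The cause was not tested. The ratio of summed CPM ran from 0.890 to 0.962, and the difference in regions with a peak from -0.50 to 0.92. Regions 2 and 3 fell below the filter at a mean count of 50. Depth limits what can be seen in the narrow regions, where the counting error reached 18.0%.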

Other observations

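Summed over the 4 Hox clusters, libraries held 943.4, 939.1, 848.3 and 756.1 CPM in WT replicates 1 to 4 and 916.0, 775.0, 787.2 and 694.2 CPM in Sd/Sd replicates 1 to 4. HoxC makes up a large share of these sums, so they do not repeat its order independently. In HoxA, WT replicate 3 (145.8 CPM) was below WT replicate 4 (154.0 CPM). In HoxB (46.0 CPM) and HoxD (165.2 CPM), WT replicate 4 was the lowest WT library, as in HoxC. Sd/Sd replicate 4 was the lowest of all libraries in HoxA (133.5 CPM) and HoxD (144.5 CPM). In HoxB the lowest was Sd/Sd replicate 2 (35.3 CPM). In the sum over the 4 clusters, WT replicate 4 lay below 3 of 4 Sd/Sd libraries.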
